A study of Mus musculus with 12 samples.

Results

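Mitochondrial ribosomal proteins are encoded in the nucleus, made in the cytosol and imported into mitochondria, where they assemble with mitochondrial rRNA into the ribosome that translates the few mRNAs of mitochondrial DNA. All proteins made by that ribosome in mammals are subunits of the oxidative phosphorylation complexes. Some of its proteins have counterparts in bacterial ribosomes, and others occur in mitochondria only. Their genes were followed here in mouse embryonic stem cells (ESCs) after knockdown of Ino80, which encodes the catalytic ATPase of a chromatin remodelling complex. Members were the genes of all non-control probes whose gene name in the scanner files starts with Mrpl or Mrps and a digit. This gave 75 genes with 125 probes, 29 genes of the small subunit and 46 of the large subunit by name, out of 19183 genes tested.

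RNA came from J1, an established mouse ESC line. Cells were infected with lentivirus carrying either a non-targeting hairpin (shNT) or a hairpin against Ino80 (shIno80) and harvested 2, 4 or 6 days later, which the series design also gives as 48, 96 and 144 hours. All groups shared the cell line, the lentiviral infection and the M15 medium used during it, and each of the 6 groups held 2 arrays that the series design lists as biological replicates. The sample descriptions speak of transfection where the design speaks of infection, and the hairpin sequence and the infected share of cells are not given in the sources used here. Whether a group's replicates came from separate infections is not said either, and p-values then measure only sample spread, which may be technical.

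For 6 of the 12 arrays the value table and the attached scanner files name different samples, with the arrays at positions 2 and 3 of each slide exchanged between shNT and shIno80. Groups below follow the value table. Under these groups r across genes, each by its brightest kept probe, was 0.9916 to 0.9946 within groups, above the highest value between groups (0.9879). Under the other record the range within groups was 0.951 to 0.9879, limma called 0 members on any day, and at an unadjusted p of 0.05 it counted 0 lower members on each day and 3, 0 and 0 higher ones at days 2, 4 and 6. The value table was chosen with these correlations and the Ino80 signal known, so the lower Ino80 signal in shIno80 is no independent check. The Ino80 level at day 2 was 2.72 and 2.67 on the shNT arrays against 0.56 and 0.85 on the shIno80 arrays. Day 4 gave 2.26 and 2.16 against −0.29 and 0.12, and day 6 gave 1.89 and 2.05 against −0.23 and −0.01. These levels, like all levels below, are log2 of the processed intensity relative to the 75th percentile of the array, so that 0 is the 75th percentile. The share of probes well above background was 61.85% to 69.15%. Each slide held the 4 arrays of 1 day, and the position on the slide cannot be told apart from the group.

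Markers of other cell states moved with the groups. The summed linear level of 9 measured ES cell markers of 10 listed was 656 to 719 in shNT at day 6 and 261 to 270 in shIno80, and all 9 were lower at days 4 and 6. Of 11 measured trophectoderm markers of 12 listed, 10 were higher on both later days and Tfap2c was lower at day 6 (−1.44), and the sum of all 11 was 26.3 to 29.7 in shNT and 512 to 535 in shIno80 at day 6. The sum of 11 measured fibroblast markers of 12 listed was 21.9 to 23.3 in shNT and 17.5 to 17.6 in shIno80 at day 6, although 5 of them were higher (Col1a1, Col1a2, Col3a1, Dcn and S100a4) and 3 lower, with a median log2 fold change of 1.12. At day 4, 5 were higher and 4 lower. Fgf4 had no probe under that name and was not measured, and Elf5 and Postn passed the background filter in no group. At day 2 neither group had Dcn or Lum well above background, nor did shIno80 have Col3a1 so. The part of these markers in the results below was not tested. In a bulk RNA sample, fewer cells of a type and less RNA per cell cannot be told apart.

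The region around the start of a gene holds the motifs by which the nuclear regulators of mitochondrial genes are known to act, so 6 promoter windows are shown for members on which the results turn. Each runs from 250 bases before to 50 bases after an annotated start, 5′ to 3′ on the strand of the gene, from RefSeq on build GRCm38.p6. Capitals mark matches on either strand to the palindromic NRF1 consensus, to the ETS core bound by GABPA (CCGGAAG) and to YY1 (AAGATGGC), and no matches to different motifs overlapped in any member's window. Mrps27, Mrps12 and Mrpl9 are shown for their large falls, Mrpl45 for 3 NRF1 matches in a single window, and Mrps11 and Mrpl46 because they start head to head and had different calls.
Mrps27, chr13:99344536-99344835 (plus strand): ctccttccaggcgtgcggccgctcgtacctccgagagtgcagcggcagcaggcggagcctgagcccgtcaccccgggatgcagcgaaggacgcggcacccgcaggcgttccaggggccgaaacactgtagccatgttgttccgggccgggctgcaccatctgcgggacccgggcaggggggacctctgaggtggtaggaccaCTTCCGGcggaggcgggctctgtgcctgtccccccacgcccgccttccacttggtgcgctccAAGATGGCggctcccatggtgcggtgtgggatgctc
Mrps12, chr7:28741772-28742071 (minus strand): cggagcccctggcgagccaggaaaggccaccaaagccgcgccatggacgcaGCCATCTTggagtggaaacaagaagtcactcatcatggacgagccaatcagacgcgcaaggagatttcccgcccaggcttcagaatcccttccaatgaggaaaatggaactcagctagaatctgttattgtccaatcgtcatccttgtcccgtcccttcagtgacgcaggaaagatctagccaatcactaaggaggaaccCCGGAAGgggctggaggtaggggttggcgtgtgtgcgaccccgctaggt
Mrpl9, chr3:94443086-94443385 (plus strand): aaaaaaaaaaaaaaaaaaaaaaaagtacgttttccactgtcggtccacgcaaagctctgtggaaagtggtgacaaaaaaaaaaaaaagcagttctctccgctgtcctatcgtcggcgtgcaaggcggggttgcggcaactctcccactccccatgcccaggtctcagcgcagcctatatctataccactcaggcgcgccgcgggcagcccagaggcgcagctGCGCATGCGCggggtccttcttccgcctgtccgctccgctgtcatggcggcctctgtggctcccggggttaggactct
Mrpl45, chr11:97315466-97315765 (plus strand): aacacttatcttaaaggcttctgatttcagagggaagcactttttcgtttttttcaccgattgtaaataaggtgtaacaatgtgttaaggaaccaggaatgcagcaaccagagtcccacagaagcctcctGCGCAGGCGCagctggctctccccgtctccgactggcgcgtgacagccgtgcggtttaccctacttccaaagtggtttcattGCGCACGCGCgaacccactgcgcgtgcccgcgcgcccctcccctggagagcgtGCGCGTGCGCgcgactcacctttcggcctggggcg
Mrps11, chr7:78782881-78783180 (plus strand): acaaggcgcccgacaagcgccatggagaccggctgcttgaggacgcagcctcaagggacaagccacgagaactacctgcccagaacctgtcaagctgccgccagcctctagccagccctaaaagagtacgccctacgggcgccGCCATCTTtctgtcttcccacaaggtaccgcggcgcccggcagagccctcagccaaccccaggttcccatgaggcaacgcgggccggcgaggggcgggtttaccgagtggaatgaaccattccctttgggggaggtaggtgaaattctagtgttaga
Mrpl46, chr7:78783040-78783339 (minus strand): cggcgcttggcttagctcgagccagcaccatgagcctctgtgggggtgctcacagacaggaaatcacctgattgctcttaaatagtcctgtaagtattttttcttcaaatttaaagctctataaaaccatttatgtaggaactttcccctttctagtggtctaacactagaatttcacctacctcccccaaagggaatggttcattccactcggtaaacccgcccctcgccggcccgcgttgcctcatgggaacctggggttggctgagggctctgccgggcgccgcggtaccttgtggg

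In all, 66 of the 75 members had a RefSeq window, 72 windows in total. The NRF1 motif was in 16.7% of member windows against 6.38% of all 21263 windows, the ETS core in 33.3% against 11.6%, and the YY1 motif in 15.3% against 3.05%. The E-box CACGTG, bound by Myc proteins, was in 9.72% against 7.84%, and the SP1 core GGGCGG in 51.4% against 46.2%. Some genes have several windows, and windows of a gene can overlap. Counted by gene, the E-box was in 7.58% of members against 8.91% of all genes, and the SP1 core in 48.5% against 49.2%. By gene the NRF1 motif was in 18.2% against 7.17%, the ETS core in 36.4% against 12.9%, and the YY1 motif in 16.7% against 3.57%. Member windows also held more CG dinucleotides (median 21.5 against 13). These shares are descriptions of the letters and were given no test. By response, the ETS core was in the windows of 35.7% of 14 members that were lower on all 3 days, 25.8% of 31 that were lower on 1 or 2 days, and 52.4% of 21 that were lower on none. The YY1 motif was in 28.6%, 16.1% and 9.52% of the same groups, the NRF1 motif in 21.4%, 16.1% and 19%, the SP1 core in 42.9%, 54.8% and 42.9%, and the E-box in 0%, 12.9% and 4.76%.

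Expression of the mitochondrial ribosomal protein genes was lower after Ino80 knockdown, and the number that passed the test grew from day 2 to the later days. At day 2, 15 of 75 members (20%) were lower and 0 were higher (limma, adjusted p under 0.05; 24 lower and 0 higher at an unadjusted p under 0.05), where 6.21% of all genes tested were lower and 6.29% higher. The counts were 42 lower and 1 higher at day 4, against 21.3% lower and 20.9% higher among all genes. By day 6 they were 49 lower (65.3%) and 1 higher, against 29.5% and 21%. The median log2 fold change of the members was −0.17, −0.44 and −0.58 at days 2, 4 and 6, where the median of all genes was 0.02, −0.05 and −0.14. Falls were moderate in size: 37 of 75 members were called and at least 1.5-fold lower at day 6, and 11 at least 2-fold lower. Of all 19183 genes tested, 4059 and 2059 were called lower by at least these factors.

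**Figure D1:**
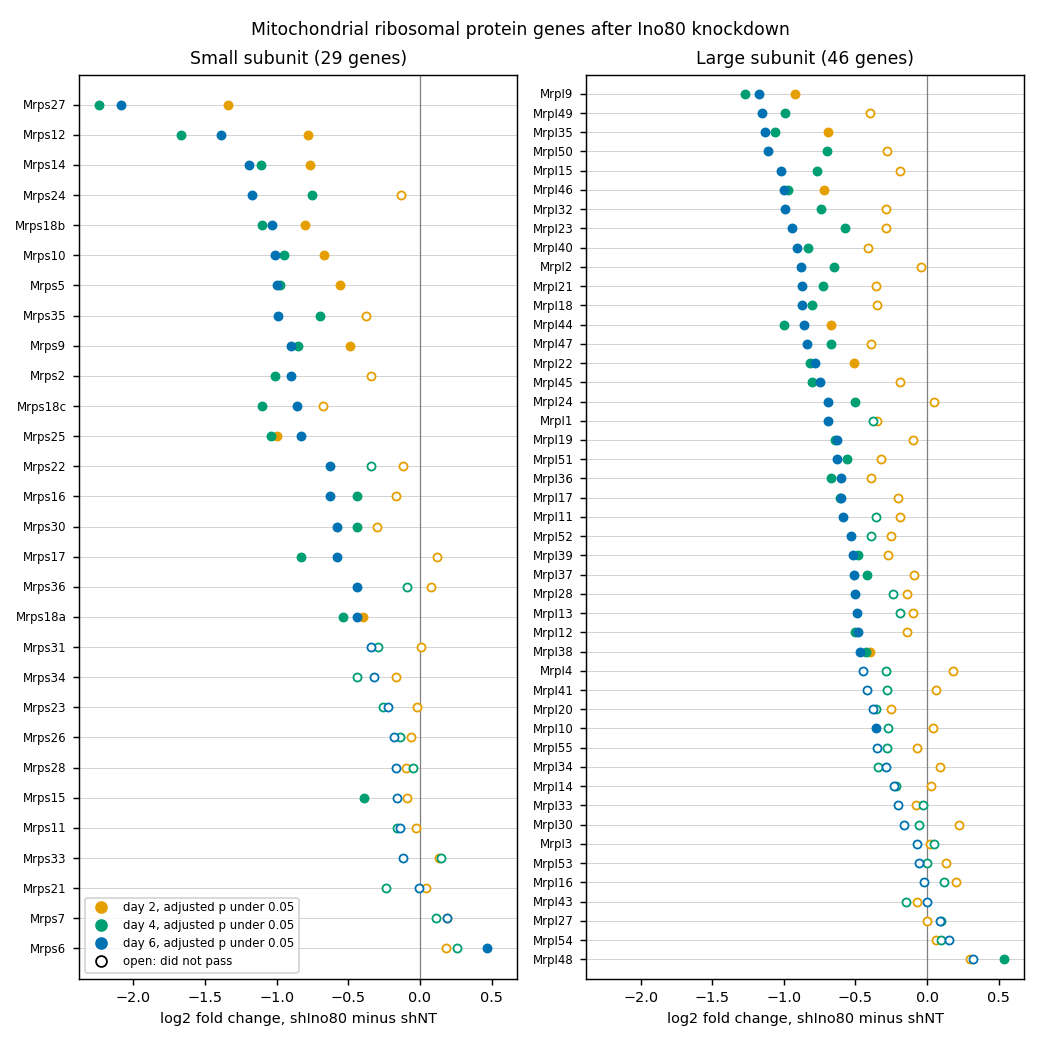
Log2 fold change (shIno80 minus shNT) of the 29 small subunit genes (left) and 46 large subunit genes (right) at days 2, 4 and 6, sorted by day 6. Filled points passed limma's adjusted p of 0.05 over all 19183 genes. Most filled points lie left of 0, and the exceptions are Mrps6 at day 6 and Mrpl48 at day 4.

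The arrays themselves show the same split at the later days. The median level over the 75 members was 3.51 and 3.57 on the shNT arrays and 3.11 and 3.01 on the shIno80 arrays at day 4. For day 6 these medians were 3.31 and 3.34 against 2.84 and 2.72. At day 2 it was 3.1 and 3.36 in shNT against 3.11 and 3.22 in shIno80, so these medians overlapped. Counted gene by gene, both shIno80 arrays lay below both shNT arrays for 30 members at day 2 (21.5% of all genes tested did so), for 63 at day 4 (40.1%) and for 65 at day 6 (45.3%). The reverse held for 3, 5 and 5 members (24.9%, 35% and 31.6% of all genes).

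The result at day 2 depended on single arrays. Without shNT replicate 2, without shIno80 replicate 1 or without shIno80 replicate 2 of that day, 7 members passed, with medians of −0.04, −0.08 and −0.29, while without shNT replicate 1 it was −0.37 with 17 lower members. These lost calls include those of Mrps9, Mrps14, Mrps18a, Mrpl22, Mrpl38, Mrpl44 and Mrpl46 in each of the first 3 fits. Mrps27, Mrps12, Mrpl9, Mrps18b, Mrps10 and Mrps5 passed at day 2 in all of these fits. Fitted on the 4 arrays of day 2 alone, limma called 0 members and 0.0313% of all genes, with 13 members lower and 0 higher at an unadjusted p under 0.05. Scaling also moved the split of calls: with median scaling 45 members were lower and 0 higher at day 4, where 39.2% of all calls were higher in place of 49.6%. In the value table, 39 members were lower and 4 higher at day 6, where 62% of all calls were higher in place of 41.6% and 17.9% of all genes were lower.

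Over the 3 days, 15 members were lower each time: Mrps5, Mrps9, Mrps10, Mrps12, Mrps14, Mrps18a, Mrps18b, Mrps25 and Mrps27 of the small subunit, and Mrpl9, Mrpl22, Mrpl35, Mrpl38, Mrpl44 and Mrpl46 of the large one. A further 26 were lower at days 4 and 6, 8 at day 6 alone, and Mrps15 at day 4 alone. Mrpl48 was higher at day 4 alone and Mrps6 at day 6 alone. The remaining 23 passed on no day. No member was called in opposite directions on different days. Among all genes tested, 6.21%, 21.3% and 29.5% were lower at days 2, 4 and 6. How many of them shared a pattern over the days was not counted, and the calls of all days come from 1 fit.

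The small subunit binds the mRNA and decodes it. Of its 29 members by name, 9, 17 and 18 were lower at days 2, 4 and 6, and 1 was higher at day 6, with medians of −0.17, −0.44 and −0.58. Of all genes tested, 6.21%, 21.3% and 29.5% were lower on these days. Structures of the mammalian ribosome have since placed the products of Mrps30 and Mrps18a in the large subunit, and that of Mrps36 has been assigned to another mitochondrial complex. The 18 small subunit members with a bacterial counterpart had medians of −0.26, −0.79 and −0.74, with 7, 13 and 12 lower and 1 higher at day 6. The 11 mitochondria-specific members had medians of −0.12, −0.34 and −0.44, with 2, 4 and 6 lower. Whether these classes differ was not tested.

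Mrps27, a mitochondria-specific protein of the pentatricopeptide repeat type, had the largest fall among the members on each day. Its level was 1.54 and 1.21 in shNT against 0.16 and −0.08 in shIno80 at day 2, then 1.54 and 1.24 against −0.80 and −0.91 at day 4. At day 6 it was 1.85 and 1.84 against −0.33 and −0.16, and the groups did not overlap on any day. Knockdown changed it by −1.34, −2.24 and −2.09 on the log2 scale (SE 0.16 each; limma adjusted p = 0.0021, 2.24e-05 and 1.97e-05), which put shIno80 at 39.6%, 21.1% and 23.5% of shNT. The targeted gene Ino80 itself was at −1.99, −2.30 and −2.09 (SE 0.17, adjusted p = 0.000779, 2.55e-05 and 2.62e-05).

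Mrps12, the counterpart of a bacterial protein at the decoding centre, was next at days 4 and 6. It lay at 4.07 and 4.19 in shNT against 3.36 and 3.34 in shIno80 at day 2. The arrays of day 4 read 4.49 and 4.54 against 2.96 and 2.73, and those of day 6 read 4.36 and 4.32 against 2.99 and 2.91. Groups were apart on every day, with log2 fold changes of −0.78, −1.67 and −1.39 (SE 0.11; limma adjusted p = 0.00384, 1.55e-05 and 2.07e-05).

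Mrps14 and Mrps24 are counterparts of bacterial small subunit proteins, of which the latter corresponds to a protein at the entry of the mRNA channel. Mrps14 was at 2.16 and 2.15 in shNT against 1.09 and 0.83 in shIno80 at day 6 (−1.19 ± 0.19 SE, adjusted p = 0.00116). Its day 2 arrays were at 2.07 and 2.56 against 1.35 and 1.74, and without shNT replicate 2 or either shIno80 array of the day the change was −0.97 to −0.53 and did not pass. Mrps24 differed little at day 2, with 3.20 and 3.23 in shNT against 3.11 and 3.04 in shIno80 (adjusted p = 0.407). It then fell to 2.44 and 2.36 against 3.20 and 3.09 at day 4 and to 2.10 and 2.07 against 3.22 and 3.29 at day 6, where shIno80 stood at 44.4% of shNT (−1.17 ± 0.09, adjusted p = 2.20e-05).

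**Figure D2:**
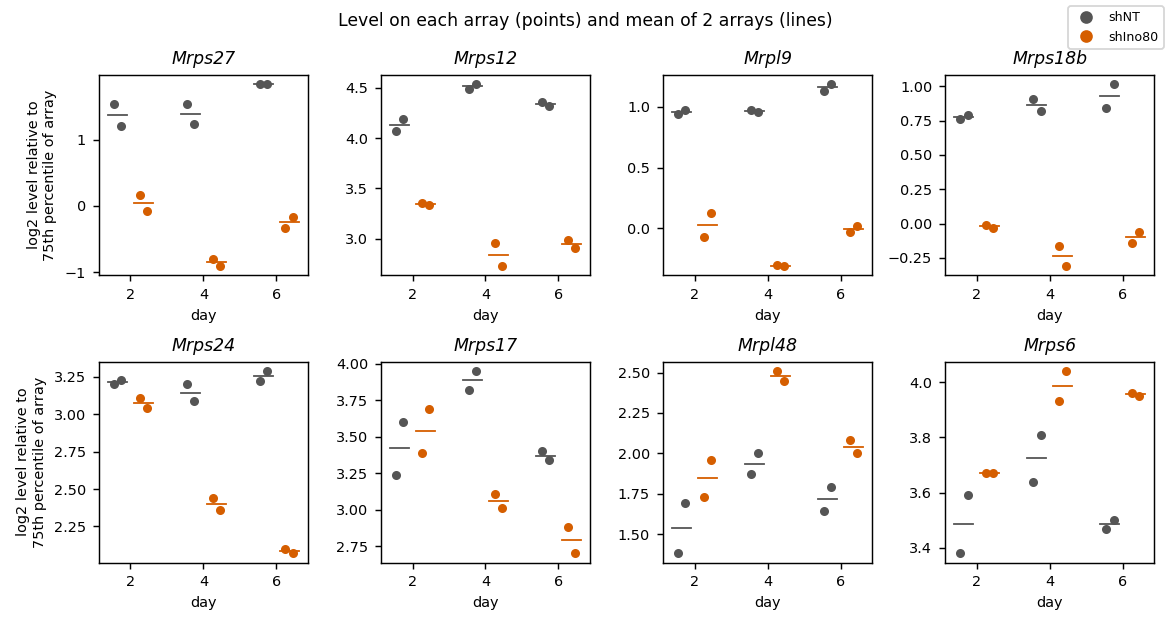
Level of 8 members on each array (points; log2 relative to the 75th percentile of the array) and the mean of the 2 arrays of a group (lines), for shNT and shIno80 at days 2, 4 and 6; each panel has its own vertical scale, which does not start at 0. For Mrps27, Mrps12, Mrpl9 and Mrps18b the groups are apart on every day, for Mrps24 and Mrps17 the gap is wide at days 4 and 6, and for Mrpl48 and Mrps6 shIno80 lies above shNT.

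Mammals have 3 paralogs of a protein of the bacterial small subunit, Mrps18a, Mrps18b and Mrps18c, and all of them were lower at days 4 and 6. The brightest probe of Mrps18b was at 0.76 and 0.79 in shNT against −0.01 and −0.03 in shIno80 at day 2, with log2 fold changes of −0.80, −1.10 and −1.03 over the days (SE 0.10, adjusted p = 0.00326, 8.67e-05 and 8.53e-05). The other probe of this gene was at 1.15, 0.11 and 0.73 (SE 0.35, no call), and with the mean of both probes Mrps18b had no call and was at 0.18, −0.50 and −0.15. Mrps18c was at 3.20 and 3.49 against 2.32 and 2.16 at day 4 (−1.10 ± 0.22, adjusted p = 0.00391) and at −0.86 at day 6 (adjusted p = 0.0106), a call that was lost without shNT replicate 2 or without shIno80 replicate 2 of day 6 (−0.81 each). Mrps18a had falls of 0.40, 0.54 and 0.44 on the log2 scale, of which the last was lost with the value table (−0.21) and without shNT or shIno80 replicate 2 of day 6 (−0.42 and −0.41).

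Mrps25, which is mitochondria-specific, stood at 0.20 and 0.74 in shNT against −0.71 and −0.35 in shIno80 at day 2. It read 0.96 and 1.24 against 0.01 and 0.11 at day 4, then 0.36 and 0.44 against −0.34 and −0.52. Its log2 fold changes were −1.0, −1.04 and −0.83 (SE 0.20, adjusted p = 0.0168, 0.00346 and 0.00866), and the groups did not overlap. The day 2 call was lost without shNT replicate 2 (−0.73) or shIno80 replicate 1 (−0.82), and the day 6 call without shIno80 replicate 2 (−0.74). Mrps5, Mrps9 and Mrps10, all counterparts of bacterial proteins, were at −1.0, −0.90 and −1.01 at day 6. Mrps5 had 4 probes on the array, all lower on each day, with falls of 0.94 to 1.5 (log2) at day 6.

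Mrps6 was the only member called higher at day 6 in the fit reported here (other settings called 0 to 6). Its level there was 3.47 and 3.50 in shNT against 3.96 and 3.95 in shIno80, a rise of 0.47 ± 0.11 (adjusted p = 0.00714), and its other probe rose by 0.41 (adjusted p = 0.0163). With median scaling the value was 0.38 and did not pass, and at days 2 and 4 it was 0.18 and 0.26 (adjusted p = 0.339 and 0.0907). Mrps7, which helps to nucleate assembly of the small subunit in bacteria, was at 0.19, 0.11 and 0.19 and passed on no day, though it was called higher at day 6 with quantile normalization, normexp and the value table (0.36, 0.34 and 0.44).

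The large subunit holds the peptidyl transferase centre and the exit tunnel. Of its 46 members, 6, 25 and 31 were lower at days 2, 4 and 6, and 1 was higher at day 4, with medians of −0.19, −0.46 and −0.56. The shares of all genes tested that were lower on these days were 6.21%, 21.3% and 29.5%. Members with a bacterial counterpart (29) had 3, 15 and 20 lower, with medians of −0.14, −0.50 and −0.60. Mitochondria-specific members (17) had 3, 10 and 11 lower, with medians of −0.25, −0.43 and −0.52. By the brightest probe of each gene, the lowest value of a large subunit member was −1.27 at day 4 and −1.17 at day 6, where Mrps12 was at −1.67 and −1.39. A dimmer probe of Mrpl35 was at −1.94 and −1.85, against −1.06 and −1.13 for its brightest.

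Both of the lowest brightest-probe values were of Mrpl9, the counterpart of a bacterial protein that reaches out from the body of the subunit beside its stalk. It was at 0.94 and 0.97 in shNT against −0.07 and 0.13 in shIno80 at day 2. The arrays of day 4 gave 0.97 and 0.96 against −0.30 and −0.31, and those of day 6 gave 1.13 and 1.19 against −0.03 and 0.02. This gave −0.92, −1.27 and −1.17 as log2 fold changes (SE 0.10; limma adjusted p = 0.00154, 3.44e-05 and 3.41e-05), and the groups were apart on each day.

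Mrpl49, a mitochondria-specific protein, did not pass at day 2 (3.75 and 4.07 in shNT, 3.35 and 3.66 in shIno80; adjusted p = 0.121). At day 6 its arrays read 3.83 and 3.92 against 2.79 and 2.67, a fall to 45.2% of shNT (−1.15 ± 0.15, adjusted p = 3.22e-04). Mrpl35 lay at 2.47 and 2.49 in shNT against 1.46 and 1.23 in shIno80 at day 6 (−1.13 ± 0.12, adjusted p = 1.31e-04). Mrpl15, Mrpl46 and Mrpl50 were at −1.02, −1.0 and −1.11 at day 6.

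Mrpl44, related to RNase III enzymes, and Mrpl22 were lower on all days, with day 2 falls of 0.67 and 0.51 (adjusted p = 0.0467 and 0.0318) that depended on single arrays as given above. Mrpl45, which tethers the ribosome to the inner membrane, was at 4.63 and 4.64 in shNT against 3.97 and 3.81 in shIno80 at day 6 (−0.75 ± 0.19, adjusted p = 0.0101), a call that was lost without shIno80 replicate 2 (−0.67). Its promoter, with the 3 NRF1 matches, thus belongs to a gene whose fall lies between the median and the largest of the members.

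Mrpl48 was the only member called higher at day 4 in the fit reported here (other settings called 0 to 5). Its arrays read 1.87 and 2.00 in shNT against 2.51 and 2.45 in shIno80, a rise of 0.54 ± 0.14 (adjusted p = 0.0131). The call was lost with median scaling (0.39), without shNT replicate 1 (0.47) and without shIno80 replicate 1 of day 4 (0.51). At days 2 and 6 the values were 0.30 and 0.32 (adjusted p = 0.202 and 0.0836), with both shIno80 arrays above both shNT arrays on each day.

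Several probes for a gene gave a check within the arrays. All 75 members had a probe well above background on all 12 arrays, 118 of the 125 probes were kept, and 29 members had 2 or more. Among those 29 at day 6, all probes were lower for 16, some were lower for 6, all were higher for 1 (Mrps6), and none was called for 6. No member had probes called in opposite directions on any day. Probes of a gene nevertheless differed in size: the 3 probes of Mrpl38 were at −0.47, −0.52 and −1.39 at day 6, and 1 of 4 probes of Mrpl3 fell by 0.64 (adjusted p = 0.00749) where its brightest was at −0.07. For Mrps30 the brightest probe fell by 0.58 and the other was at 0.27 (adjusted p = 0.476), and their mean did not pass (−0.16).

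**Figure D3:**
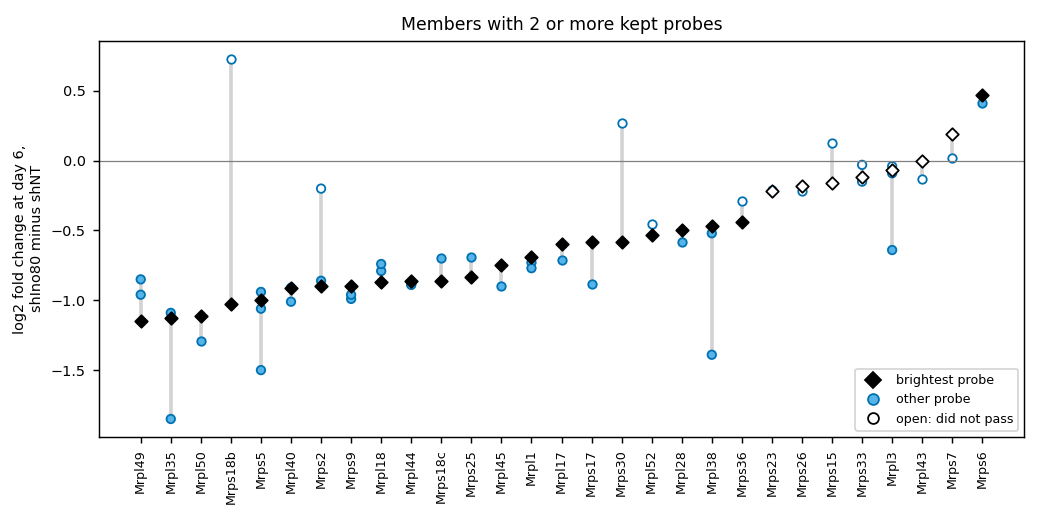
Log2 fold change at day 6 (shIno80 minus shNT) of each kept probe of the 29 members with 2 or more probes, sorted by the brightest probe (diamonds; circles are other probes, open symbols did not pass). Probes of 1 gene mostly lie on the same side of 0, and the widest gap is that of Mrps18b, from −1.03 to 0.73.

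The size of the response differed between days for few members. The change from day 2 to day 4 was tested as an interaction in limma, and 7 of 75 members (9.33%) passed, all with a lower value at day 4, where 7.15% of all genes did so and 8.17% had a higher one. These were Mrps17 (−0.95 ± 0.22, adjusted p = 0.0228), Mrps27 (−0.91, 0.0291), Mrps12 (−0.89, 0.00682), Mrps2 (−0.67, 0.0145), Mrps24 (−0.61, 0.0159), Mrpl2 (−0.61, 0.02) and Mrpl24 (−0.55, 0.0325). Mrps17 stood at 3.24 and 3.60 in shNT against 3.39 and 3.69 in shIno80 at day 2, where the groups overlapped, and at 3.82 and 3.95 against 3.11 and 3.01 at day 4, where they did not. Its day 6 value of −0.58 (adjusted p = 0.0128) did not pass without shNT replicate 1 (−0.55) or without shIno80 replicate 2 of that day (−0.49). Mrps2 was at 2.64 and 2.72 against 2.35 and 2.32 at day 2 (adjusted p = 0.0515) and at 2.84 and 2.81 against 1.89 and 1.73 at day 4 (−1.01, adjusted p = 8.84e-05).

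That count was sensitive to single arrays: it was 3 without shIno80 replicate 1 of day 2, 1 without shNT replicate 1 or without shIno80 replicate 2 of day 4, and 4 without either of the other arrays of day 4. Between days 4 and 6, limma called 0 of 75 members, and 2.25% of all genes were lower and 1.55% higher (2 members lower and 0 higher at an unadjusted p under 0.05; 3 called with normexp background correction). Slide and day coincide, and an additive effect of the slide cancels in these differences.

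Of the 66 members with a RefSeq window, 19 start within 300 bases of a protein-coding gene on the opposite strand. This gave 18 head-to-head pairs with both genes measured. The other members could not be searched. For Mrpl48 and Rab6a the distance was −36 bases, so these genes overlap at their starts. At day 6 both genes were lower in 3 pairs, the member was lower and the partner not in 9, and neither was lower in 4. In the other 2 pairs the partner alone was lower. Of all genes tested, 29.5% were lower at day 6, and whether partners or shared calls exceed that share was not tested. Mrps27 and Ptcd2, which encodes a pentatricopeptide repeat protein of mitochondria, start 108 bases apart on chromosome 13, and Ptcd2 fell by 1.30, 1.64 and 1.61 (SE 0.12, adjusted p = 0.000883, 2.28e-05 and 1.68e-05). Mrpl2 and the kinesin light chain gene Klc4 start 141 bases apart, and Klc4 was at −0.06, −0.88 and −0.85 beside −0.04, −0.65 and −0.88 for Mrpl2. The third pair with both lower was Mrpl32 (−0.99) and the proteasome gene Psma2 (−0.62) at day 6, where Psma2 did not pass with quantile normalization (−0.24) or without shIno80 replicate 2 (−0.54).

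Other pairs did not share a call. Mrpl46 and Mrps11 start 42 bases apart and are both members. Mrpl46 was at 2.41 and 2.46 in shNT against 1.5 and 1.38 in shIno80 at day 6 (−1.0 ± 0.16, adjusted p = 0.00105), whereas Mrps11 was at 1.27 and 1.32 against 1.16 and 1.15 (−0.14 ± 0.10, adjusted p = 0.276). Mrps12 and Sars2, the mitochondrial seryl-tRNA synthetase gene, start 147 bases apart, and Sars2 was at 1.33 and 1.44 in shNT against 1.14 and 1.38 in shIno80 at day 6 (−0.12 ± 0.11, adjusted p = 0.397). In the other direction, Gga3 fell by 1.84 and Eme1 by 1.40 while their partners Mrps7 and Mrpl27 were at 0.19 and 0.09 without a call, and Tmem63b rose by 1.17 beside Mrpl14 at −0.23. Whether the changes differ within a pair was not tested.

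**Figure D4:**
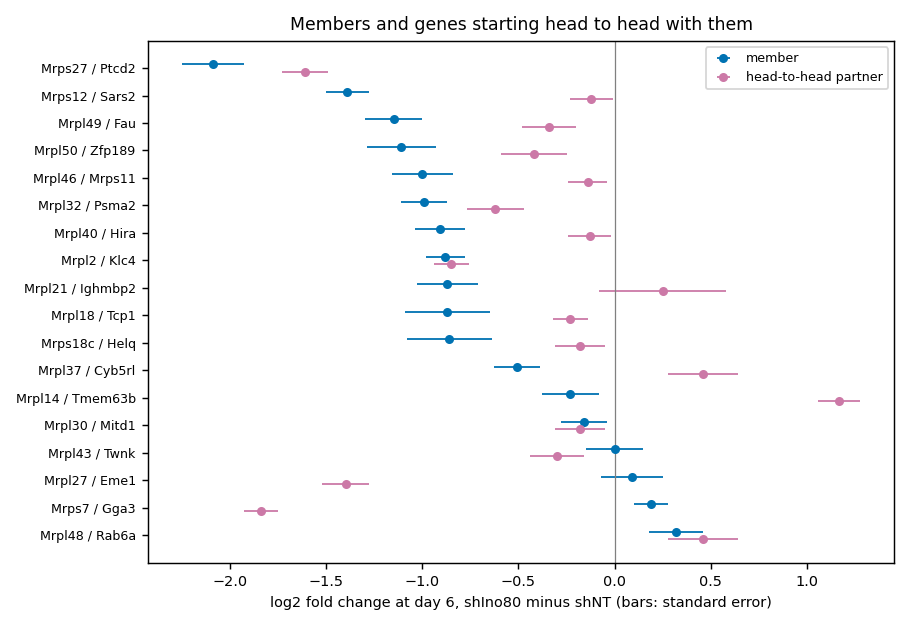
Log2 fold change at day 6 (shIno80 minus shNT, bars are 1 standard error) of members and of the genes that start head to head with them, for 18 pairs sorted by the member. Both genes were called lower in the pairs Mrps27 and Ptcd2, Mrpl2 and Klc4, and Mrpl32 and Psma2, of which Psma2 lies nearest to 0. Sars2 and Mrps11 lie near 0 beside Mrps12 and Mrpl46.

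Proteins of the mitochondrial ribosome under other names were counted beside the members. Of 7 measured, 1, 3 and 5 were lower at days 2, 4 and 6 and 0 higher, with medians of −0.08, −0.12 and −0.39. Mrpl42 is neither among these 7 nor a member. For comparison with this list and those below, 6.21%, 21.3% and 29.5% of all genes tested were lower on these days. The shares of all genes that were higher were 6.29%, 20.9% and 21%. Gadd45gip1, which also carries the large subunit name Mrpl59, was at 2.97 and 3.17 in shNT against 1.97 and 2.07 in shIno80 at day 2, and at 3.27 and 3.42 against 1.39 and 1.51 at day 6. Its log2 fold changes were −1.05, −1.70 and −1.89 (SE 0.11, adjusted p = 0.00166, 1.97e-05 and 7.95e-06), and the groups did not overlap. Ptcd3, a small subunit protein, was at −0.79 and −1.05 at days 4 and 6, and Mrpl58, which releases stalled ribosomes, at −0.36 and −0.48. The calls of Mrpl58 were lost with the value table (−0.27 and −0.24), and that of day 4 also without any array of day 4.

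Assembly of the ribosome needs GTPases and enzymes that modify its rRNA. Of 23 such genes, 2, 13 and 16 were lower at days 2, 4 and 6, with 1 higher at each of days 4 and 6 and medians of −0.15, −0.50 and −0.60. The day 2 share of 8.7% lower stood against 6.21% of all genes tested. Mrm2, an rRNA methyltransferase, fell by 0.70, 1.48 and 1.51, the pseudouridine synthase gene Rpusd4 by 0.83, 1.29 and 1.2, and Eral1, which encodes a small subunit rRNA chaperone, by 1.16 and 1.11 at days 4 and 6. Mettl15, which methylates small subunit rRNA, rose by 0.87 and 0.45 at days 4 and 6 (adjusted p = 0.00175 and 0.0305), a day 6 call that was lost with median scaling (0.36) and without any array of that day.

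Translation factors and related genes (14 of 15 measured) had 0, 5 and 8 lower and 1 higher at day 4, with medians of −0.07, −0.26 and −0.40. Oxa1l, the insertase that receives nascent chains, was at −0.97 at day 6 (adjusted p = 0.0209), the elongation factor gene Tsfm at −0.69 and the RNA-binding protein gene Slirp at −0.71. The calls of Oxa1l and Slirp at day 6 were lost with the mean of their probes (−0.43 and −0.31), that of Oxa1l also without any array of day 6, and that of Slirp without shNT or shIno80 replicate 2 of day 6 (−0.66 and −0.61). Gfm1, another elongation factor gene, was higher at day 4 by 0.35 (adjusted p = 0.0167), which did not pass with the mean of its probes (0.08), with median scaling (0.21) or without any array of day 4.

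Of 17 mitochondrial aminoacyl-tRNA synthetase genes, 1, 8 and 8 were lower and 1 was higher at day 2, with medians of −0.07, −0.31 and −0.39. The day 2 shares of 5.88% lower and 5.88% higher were near the 6.21% and 6.29% of all genes tested. Rars2 was lower on each day, by 0.86, 1.24 and 1.29. Fars2 fell by 0.44 at day 4 and by 1.12 at day 6, and its response differed between these days (−0.68 ± 0.14, adjusted p = 0.0399). Nars2 was higher at day 2 by 0.34 (adjusted p = 0.0428), a call that was lost without any single array of the 12.

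The 11 genes that replicate and transcribe mitochondrial DNA or process its RNA had 1, 5 and 6 lower and 1 higher at day 6, with medians of 0.03, −0.24 and −0.35. The day 2 share of 9.09% lower stood against 6.21% of all genes tested. Polrmt, the mitochondrial RNA polymerase, was at −0.59 and −0.71 at days 4 and 6, its elongation factor gene Tefm at −0.79 and −1.0, and Pnpt1, an RNA-processing exonuclease, at −0.69, −1.06 and −1.02. The day 4 call of Polrmt was lost without shNT replicate 2 or either shIno80 array of day 4 (−0.63 to −0.49). Polg, the DNA polymerase, was higher at day 6 by 0.50 (adjusted p = 0.0123), and this was lost with median scaling (0.40), without shNT replicate 1 (0.47) and without shIno80 replicate 2 of that day (0.39).

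Of 10 nuclear regulators of mitochondrial genes, 3, 7 and 5 were lower and 1, 1 and 0 higher, with medians of −0.19, −0.75 and −0.49. Ppargc1b, a coactivator of such genes, fell by 0.60, 1.57 and 1.33, and its day 2 call was lost without shIno80 replicate 2 (−0.59). Gabpa, whose product binds the ETS core, was at 1.79 and 1.92 in shNT against 0.98 and 0.86 in shIno80 at day 6 (−0.94 ± 0.19, adjusted p = 0.00351). Mycn was at −0.55, −1.69 and −1.21, and Myc at −0.87 and −0.83 at days 2 and 4. The day 4 call of Myc was lost without any array of day 4, and the day 2 calls of both genes without any of several arrays, among them shNT replicate 2 and both shIno80 arrays of day 2. Esrra, a nuclear receptor gene, was higher at days 2 and 4, by 0.44 and 0.43, and neither passed with median scaling (0.39 and 0.29), nor did the day 2 value without shNT replicate 1 or either shIno80 array of day 2 (0.40 to 0.47).

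The other ribosome of the cell and the complexes that need mitochondrial translation were counted as well. Cytosolic ribosomal protein genes (81) had 2, 20 and 65 lower and 0 higher (6, 31 and 73 lower and 0, 1 and 0 higher at an unadjusted p under 0.05), with medians of −0.10, −0.22 and −0.52. Against these, the members had 15, 42 and 49 of 75 lower. Nuclear genes for oxidative phosphorylation subunits (82 of 84 measured) had 8, 40 and 50 lower and 1, 1 and 0 higher, with medians of −0.13, −0.32 and −0.52. For the cytosolic genes the share lower was 24.7% at day 4, near the 21.3% of all genes tested, and 80.2% at day 6, where 29.5% of all genes were lower. No difference between lists was tested.

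**Figure D5:**
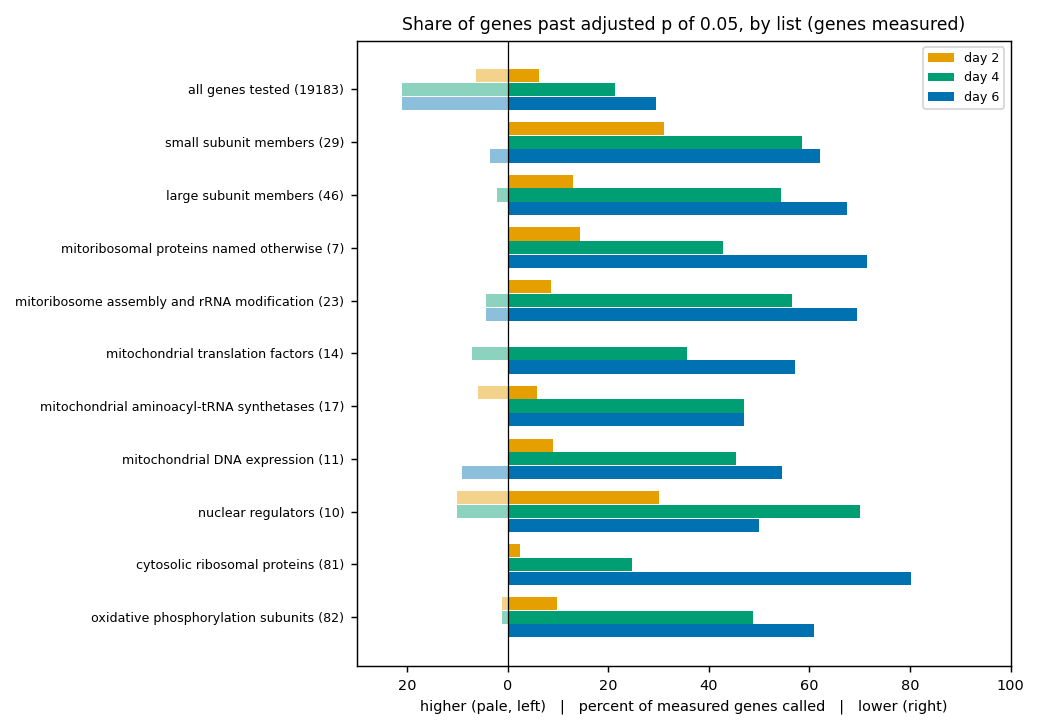
Percent of the measured genes of each list that limma called lower (bars to the right) or higher (pale bars to the left) in shIno80 at days 2, 4 and 6, with the number of genes measured in brackets. Small and large subunit members have 58.6% and 54.3% lower at day 4 and 62.1% and 67.4% lower at day 6, against 21.3% and 29.5% of all genes tested.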

How the data were processed

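The 12 arrays carry deposited scanner intensities from Agilent Feature Extraction 9.5.3.1 with green columns only, although the labels name Cy5; the processed intensity was background-subtracted per the file headers. The authors' deposited value table holds log2 values of the mean spot intensity times 1 factor per array (matched within a relative tolerance of 1e-06), and its direction and samples follow its column names. The basis of these factors was not found. From each log2 processed intensity the 75th percentile of its array was subtracted. Spots marked as outliers were left out. Of 41174 probes, 28654 were kept because some group had them well above background on both its arrays, and a gene was represented by its brightest kept probe. Probes were named through RefSeq (GRCm38.p6): 22951 by accession, 6659 by symbol and 3109 by older symbol, while 8455 kept the name in the file. Mrpl42, Mrpl57 and Mrpl58 carry other names there and are not members.

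The model had a mean per group and all 12 arrays (limma 3.58.1, R 4.3.3), with Benjamini-Hochberg adjustment over 19183 genes and a threshold of 0.05. The scripts were tested on simulated data for day 6, with 50 genes changed at each size. Of log2 changes of −0.5, −1 and −2, 6%, 54% and 90% were called, and 88% of rises of 2. Far fewer genes changed there than were called in the data, so these shares may not carry over. A gene without a call may still have changed. Named genes were the 6 largest called falls and rises of each day, the 4 largest differences between days each way and, per list, the 3 largest called falls and rises of each day. Other named genes, including all head-to-head partners, were chosen after their values were seen, and the members and lists were chosen with earlier results of these data known. Alternatives covered scaling, background correction, filter, probe choice, value table, sample record, replicate block, single days and left-out arrays. Proteins and exons were not used here.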

Additional observations from a re-analysis of the deposited data

Results flagged for a closer look

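For 17 named genes the response to shIno80 differed between day 2 and day 4, and for 1 between day 4 and day 6, by limma's interaction test with adjusted p under 0.05. Among the members, the value at day 4 minus that at day 2 (log2) was −0.95 for Mrps17, −0.91 for Mrps27, −0.89 for Mrps12, −0.67 for Mrps2, −0.61 for both Mrps24 and Mrpl2, and −0.55 for Mrpl24. Among genes of the related lists it was −1.14 for Mycn, −0.96 for Ppargc1b, −0.78 for Mrm2, −0.68 for Pars2, −0.65 for Gadd45gip1 and 0.79 for Mettl15. Of the head-to-head partners, Eme1 was at −0.92, Gga3 at −0.85, Klc4 at −0.83 and Tmem63b at 0.64. Fars2 differed between day 4 and day 6 by −0.68.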

How the results depend on the processing

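With the samples as the scanner files are attached, 0 members were called on any day, the medians were 0.25, 0.04 and −0.04 at days 2, 4 and 6, and 0 responses differed between days. Under that record 76 values of named genes turned in sign, each with adjusted p = 1, to values of −0.03, −0.02, −0.01, 0, 0.01, 0.02, 0.03, 0.04, 0.05, 0.06, 0.07, 0.08, 0.09, 0.11, 0.12, 0.13, 0.14, 0.15, 0.16, 0.17, 0.19, 0.25, 0.33, 0.42, 0.44, 0.45 or 0.6. Averaging probes, Mrps18b at day 2 turned to 0.18 and Slirp at day 4 to 0.06. The cause was not tested.

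Among the settings that kept the value table's samples, the median of the members stayed below 0 on each day. With median scaling it was −0.59 at day 4, 0 members were higher at day 4 and at day 6, and 3 responses differed between days 4 and 2. Median scaling moved the median of all genes to −0.04, −0.19 and −0.23, and the members' median lay 0.19, 0.39 and 0.44 below that of all genes with either scaling. Quantile normalization gave medians of −0.33 and −0.42 and 4 and 4 higher members at days 4 and 6. Normexp gave −0.34 and −0.40, with 3, 5 and 6 higher members at days 2, 4 and 6, and 13 and 3 responses that differed. The value table gave a median of −0.35 and 4 higher members at day 6. Without a filter on dim probes, 8 members were lower at day 2 and 4 responses differed. Fitted by single days, 0 members were called at day 2. The cause of these shifts was not tested.

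With 1 array left out at a time, 7 to 17 members were lower at day 2, 29 to 47 at day 4 and 33 to 54 at day 6. Higher members numbered 0 to 1 at day 4 and 1 to 2 at day 6, the day 2 median was −0.37 to −0.04, and 1 to 10 responses differed between days 4 and 2. The lone array left in a group was taken to vary like the other groups.

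The main model has no term for replicate numbers. Same-numbered arrays of the 2 hairpins deviated together with r = 0.30, 0.12 and 0.08 at days 2, 4 and 6. Whether these numbers mark pairs was not tested. With a replicate block 19, 47 and 54 members were lower, and 0, 1 and 2 higher. The main fit had 15, 42 and 49 lower. Calls among all genes at day 2 were 3827 with the block and 2397 without it. Signal over background limits little here, since all 75 members were well above it on all 12 arrays, while 2 arrays per group limit the precision.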
